A study of Mus musculus with 29 samples.

Results

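The effect of a high-fat diet on mouse atria was measured as 1 diet coefficient over both genotypes, using 17 of the 29 RNA-seq libraries of the series. The members were the 9 libraries labelled as 4 weeks of high-fat diet without vehicle or nicotinamide riboside and the 8 libraries labelled as regular diet. They fell into 4 groups of atria from male mice: control mice (Ctrl) on the regular diet (Ctrl_RD, 4 libraries), Ctrl mice on the high-fat diet (Ctrl_HFD, 4 libraries), mice of the genotype labelled NaV1.5 on the regular diet (NaV1.5_RD, 4 libraries) and mice of that genotype on the high-fat diet (NaV1.5_HFD, 5 libraries). The diet began at 5 weeks of age and lasted 4 weeks. NaV1.5 is the pore-forming subunit of the cardiac sodium channel. The change to NaV1.5 in these mice, any promoter or cell type that drives it, the strain and whether a library is 1 animal are not given in the sources used here, so the p-values measure the spread between libraries. Genotype entered the model as a second, additive term, and a positive difference is higher on the high-fat diet throughout. Differences, and values after "rose by" or "fell by", are on the log2 scale with their SE.

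Fatty acids are the main fuel of the heart. They enter the myocyte through carriers such as CD36, cross the mitochondrial membranes on carnitine, and are broken down by beta-oxidation, a pathway of enzymes that the fatty acid receptor PPAR-alpha can induce. Proteins that misfold are refolded by HSP90 and HSP70 with their cochaperones in the cytosol and by a separate set in the endoplasmic reticulum. The transcription factor HSF1 binds repeated GAA units, the heat shock element, in front of many cytosolic chaperone genes. The circadian clock acts on its target genes through the E-box CACGTG.

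The promoter sequences below were chosen because these 3 genes of the chaperone and clock lists passed the test and hold the motif of their list. Each stretch runs 5′ to 3′ from RefSeq (GRCm38.p6), with 250 bases before the transcription start and 30 after it, and capitals mark the bases of a motif match. The motifs searched on both strands were the heat shock element of 2 units, GAANNTTC, the element of 3 units, which is the first followed by 2 free bases and another GAA, and the E-box CACGTG. The Chordc1 stretch is chr9:18292017-18292296 (plus strand), the Hspd1 stretch chr1:55087903-55088182 (minus strand) and the Ciart stretch chr3:95882199-95882478 (minus strand).
Chordc1: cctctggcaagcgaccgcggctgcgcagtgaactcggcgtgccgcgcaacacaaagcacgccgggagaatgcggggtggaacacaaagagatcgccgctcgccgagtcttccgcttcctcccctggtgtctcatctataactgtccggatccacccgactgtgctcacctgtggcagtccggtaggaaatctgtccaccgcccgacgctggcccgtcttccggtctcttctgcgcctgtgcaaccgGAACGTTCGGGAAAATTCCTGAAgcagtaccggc
Hspd1: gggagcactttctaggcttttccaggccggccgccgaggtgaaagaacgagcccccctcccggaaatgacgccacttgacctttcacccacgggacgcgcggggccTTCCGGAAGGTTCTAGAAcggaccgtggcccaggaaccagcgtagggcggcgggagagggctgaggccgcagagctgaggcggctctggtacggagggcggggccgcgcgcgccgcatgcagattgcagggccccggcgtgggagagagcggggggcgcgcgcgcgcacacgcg
Ciart: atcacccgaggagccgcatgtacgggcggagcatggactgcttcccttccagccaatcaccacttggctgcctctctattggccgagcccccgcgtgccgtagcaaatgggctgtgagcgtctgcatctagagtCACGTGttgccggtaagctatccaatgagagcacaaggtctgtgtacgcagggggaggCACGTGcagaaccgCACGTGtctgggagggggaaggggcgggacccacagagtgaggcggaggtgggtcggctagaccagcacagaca

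In the windows of 250 bases before to 50 after the start, the 3-unit element was found in 0.569% of the 11608 tested genes with a RefSeq promoter. Of the 22 genes of the cytosolic chaperone list with a promoter, 9 rose with the diet. Of these 9, 4 held the 3-unit element (Hsph1, Chordc1 and the mitochondrial Hspd1 and Hspe1), against 0 of the 13 that did not pass. The 2-unit element was in 6.96% of all genes, in 5 of the 9 that rose and in 5 of the 13 that did not pass, Hspa1a, Hspa1b, Hspb1, Fkbp4 and Bag3. In Chordc1 the matches overlapped the start site, from position -4 to one that began at position 6. The Hspd1 match began at position -144, in a window that overlaps the one of its head-to-head neighbour Hspe1 (GRCm38 chromosome 1, 55088132 to 55091307, plus strand). Because these windows overlap, Hspd1 and Hspe1 are not independent among the 4 genes, and the window of a second Hspd1 start (chr1:55088194-55088493) held no match. Ahsa2, Hspa4l and Ahsa1 rose and held no match in their windows. Ciart held E-boxes at positions -116, -58 and -44, and an E-box was in 11.3% of all genes and in 5 of the 16 clock genes with a promoter. Of the 3 clock genes with a promoter that fell, Ciart alone held one. A match describes letters in a window and was not tested as a binding site.

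Each library held 15318744 to 33061018 counts of read pairs over 55292 gene names, and 16168 genes were kept for the test. Totals did not separate the diets (exact permutation within genotype, 2-sided p = 0.478). Atrial myocyte genes were high in every library: the 10 markers summed to 64398 to 72177 CPM (counts scaled to library size) on the regular diet and 54061 to 65846 CPM on the high-fat diet. An added record named flag had 0 counts in all 17 libraries. Ctrl_HFD replicate 4 was the only one of the 17 that the labels put in batch 2. NaV1.5_RD replicate 4 stood apart from its group on the first principal component of log2 CPM (17.6% of the variance), at 34.7 against -22.6 to -14.2 for the other libraries of NaV1.5_RD, and lay beyond the NaV1.5_HFD libraries, whose highest value was 26.5. Ctrl_RD replicate 4 was also apart from its group on that component, at 5.8 against -24.3 to -17.9. It lay within the Ctrl_HFD range of -11.4 to 16.3.

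On the high-fat diet the atria held more RNA of 12 chaperone and cochaperone genes led by Hsp90aa1 and Chordc1, mitochondrial Hspd1 and Hspe1 among them. They also held more RNA of 7 genes of the unfolded protein response, of 7 beta-oxidation genes, of the fatty acid carrier Cd36 and of the collagen chaperone Serpinh1. They held less RNA of atrial natriuretic peptide (Nppa), of the clock gene Ciart, of the fatty acid synthase Fasn, of 4 glutathione transferases and of the fat cell gene Plin1. In edgeR's quasi-likelihood test with Benjamini-Hochberg adjustment over all genes, 1242 of 16168 genes (7.68%) passed an adjusted p of 0.05. Of these, 515 (3.19%) were higher and 727 (4.5%) lower on the high-fat diet. Most differences were small: the median size among the called genes was 0.30 on the log2 scale (quartiles 0.24 and 0.38), and 29 genes exceeded 2-fold. In 78 genes (0.482%) the 2 diets did not overlap in any library, 40 with every high-fat library above every regular-diet library and 38 below. All 1242 called genes had the same sign in both genotypes, a direction that fitting 1 coefficient to both makes likely.

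The count of genes rested on single libraries. In NaV1.5_RD, 701 genes passed without replicate 1, 541 without replicate 2, 498 without replicate 3 and 2461 without replicate 4. In NaV1.5_HFD, 701 passed without replicate 2 and 687 without replicate 3. In Ctrl_RD, 714 passed without replicate 1 and 707 without replicate 3, and in Ctrl_HFD, 811 passed without replicate 1 and 761 without replicate 2. Each of the other 7 libraries left a count within 1.5 times the full one, the highest being 1750 without Ctrl_RD replicate 4. Through all 17 such fits 426 genes kept their call, 186 of them higher and 240 lower. With batch as a term, which takes Ctrl_HFD replicate 4 out of the estimate, 1103 genes passed. Cells of one type being fewer and each cell holding less RNA cannot be told apart in these bulk samples.

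The diet difference followed the base composition of the transcripts. Across genes, its Spearman correlation with GC content was -0.48 (15890 genes, which are not independent replicates and share the same 17 libraries), and the median GC content was 42.8% in genes that were higher, 55.6% in genes that were lower and 49.7% in all genes tested. A fit with offsets for GC content and transcript length per library, in which that correlation was 0.0040, called 395 genes (2.49%), 166 higher (1.04%) and 229 lower (1.44%). Of these, 305 were among the 1242, which is 24.6% of the genes called without offsets. The count with offsets, or whether a call passed with them, is therefore given beside most groups. The cause of the trend was not tested.

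**Figure D1:**
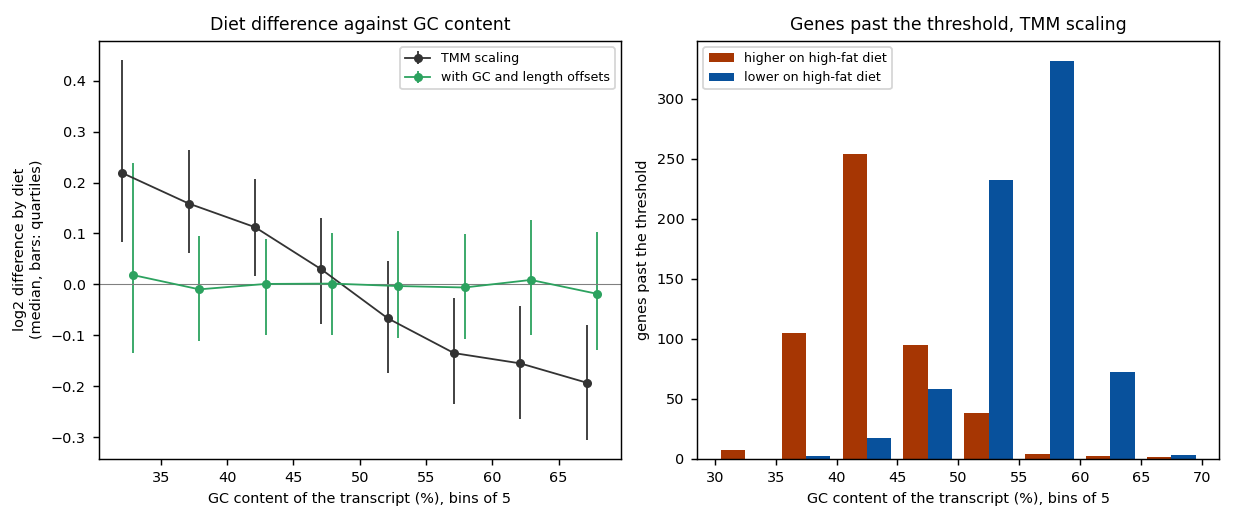
Left: median log2 difference by diet (points, with quartiles as bars) in bins of 5 percentage points of transcript GC content, with TMM scaling alone and with GC and length offsets. Right: number of genes past the threshold per bin with TMM scaling. The median ran from 0.22 in the bin of 30 to 35% GC to -0.19 in the bin of 65 to 70% with TMM scaling, and was 0.019 and -0.018 in those bins with offsets.

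Of the 28 measured members of the cytosolic chaperone and cochaperone list, which also holds mitochondrial Hspd1 and Hspe1, 12 rose with the diet and none fell. That is 42.9% of the list beside 7.68% of all genes tested. Hsp90aa1, the stress-inducible HSP90 (GRCm38 chromosome 12, 110690605 to 110702728, minus strand), was at 39.5 to 61.3 CPM on the regular diet (median 47.7) and 67.6 to 154 CPM on the high-fat diet (median 86.5), so every high-fat library lay above every regular-diet library. Its log2 difference was 0.90 ± 0.14 (SE; edgeR adjusted p = 0.00335), and it was 0.64 ± 0.18 in Ctrl and 1.13 ± 0.18 in NaV1.5 atria. Chordc1, a cochaperone of HSP90 (GRCm38 chromosome 9, 18292125 to 18317442, plus strand), was at 22 to 32.4 CPM on the regular diet (median 24.2) and 34.8 to 55.6 CPM on the high-fat diet (median 39.2), again without overlap (0.69 ± 0.084, SE; edgeR adjusted p = 0.000576). Ahsa2, an activator of the HSP90 ATPase (GRCm38 chromosome 11, 23487882 to 23498030, minus strand), was at 13.1 to 17 CPM on the regular diet (median 15.3) and 17.6 to 25.4 CPM on the high-fat diet (median 21), a difference of 0.50 ± 0.066 (SE; edgeR adjusted p = 0.000642). The diets did not overlap for this gene either. Hspa4l, a nucleotide exchange factor of HSP70, rose by 0.34 ± 0.067 (SE; edgeR adjusted p = 0.00816). The other genes that passed were Hspd1, which with Hspe1 forms the mitochondrial chaperonin, Hspe1 itself, Ahsa1, Hspa8, Hsph1, Dnaja1, Hspa4 and St13, where Hspa4 had a difference of 0.19 and Hsph1 one of 0.76. The constitutive HSP90 gene Hsp90ab1 was not among them, at -0.078 ± 0.063 (SE; edgeR adjusted p = 0.467). The HSP70 genes Hspa1a and Hspa1b did not pass, nor did Hspb1, Dnajb1 and Bag3. Of the 28 members 20 lay above 0 and 8 below, the lowest at -0.37.

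The list's median log2 difference was 0.19, against -0.0073 over all genes, and it was 0.14 in Ctrl and 0.23 in NaV1.5 atria. With GC and length offsets 7 members passed and none fell, and the median was 0.15. Without NaV1.5_RD replicate 1 the count was 7, and the other left-out fits gave up to 15. Hspa4l, Hsph1, Dnaja1, Hspa4 and St13 did not pass with offsets, and Hspe1 lost its call without each of 13 libraries.

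**Figure D2:**
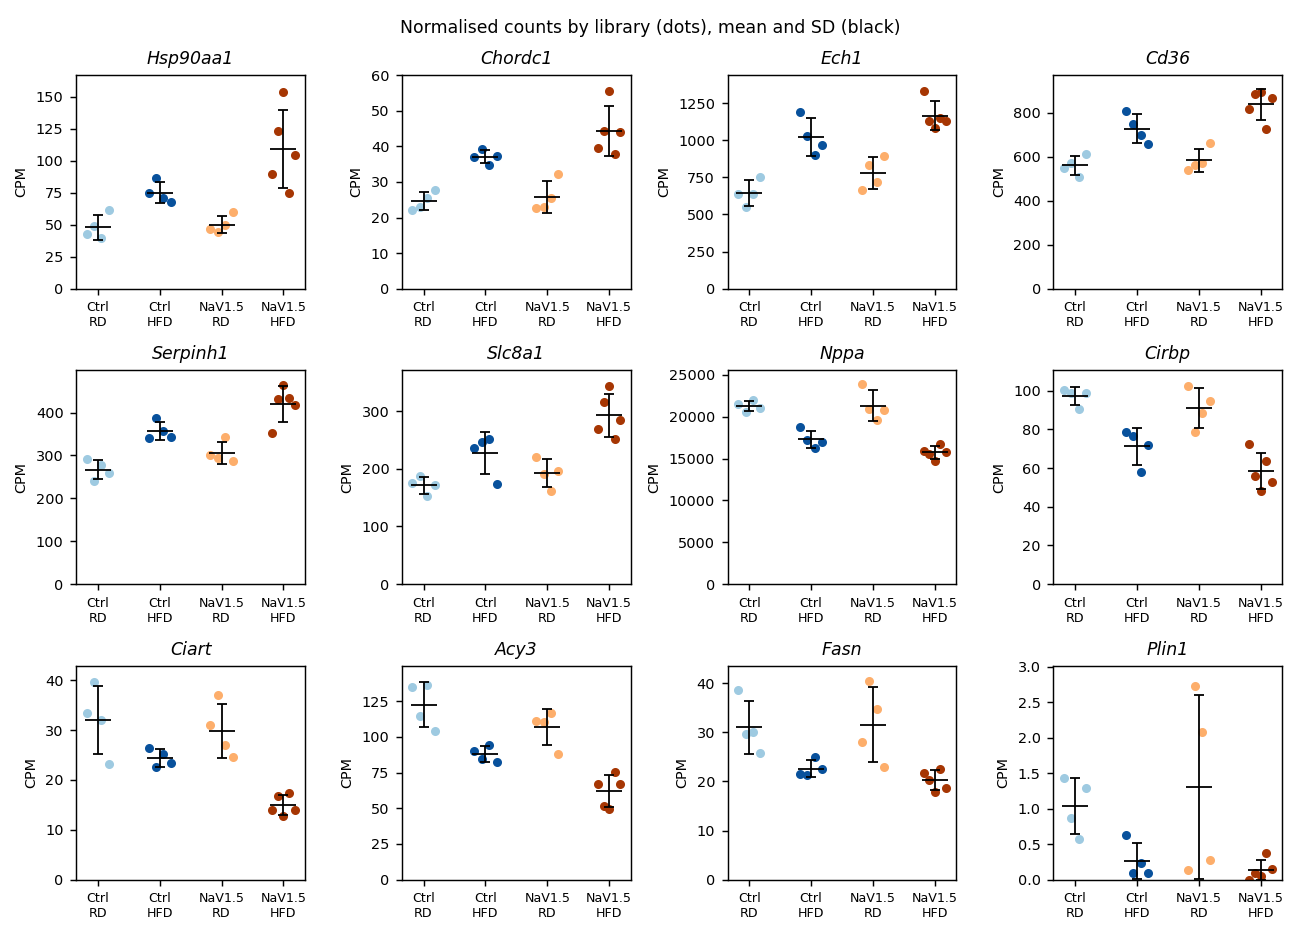
Normalised counts in CPM (vertical axes, from 0) of 12 genes in each library (dots) of the 4 groups, with the group mean and SD in black (n = 4, or 5 for NaV1.5 on the high-fat diet). Hsp90aa1, Chordc1 and Ech1 were higher in every high-fat library than in every regular-diet library and Nppa was lower, while Plin1 was near 0 in most high-fat libraries and in 2 regular-diet libraries of NaV1.5.

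Of the 21 measured genes of the unfolded protein response of the endoplasmic reticulum, 7 rose and none fell, with a median of 0.24. That is 33.3% of the list beside 7.68% of all genes. Hsp90b1, the HSP90 of the endoplasmic reticulum, was at 263 to 348 CPM on the regular diet (median 298) and 324 to 506 CPM on the high-fat diet (median 391). The ranges overlapped, and the difference was 0.39 ± 0.074 (SE; edgeR adjusted p = 0.00656). Dnajc3, which restrains the kinase PERK, rose by 0.37 ± 0.078 (SE; edgeR adjusted p = 0.00973), Pdia4, a disulfide isomerase, by 0.37 ± 0.090 (SE; edgeR adjusted p = 0.0191), and Atf6, a sensor of unfolded protein, by 0.24 ± 0.058 (SE; edgeR adjusted p = 0.0192). Pdia3, Xbp1 and Creld2 were the other members that passed, at 0.26, 0.20 and 0.34. With GC and length offsets 8 members passed, Sdf2l1 and Manf among them, and Atf6 did not (edgeR adjusted p = 0.051). The count was 4 without NaV1.5_RD replicate 2, 11 without Ctrl_HFD replicate 3 and 12 without NaV1.5_RD replicate 4.

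ATF4 targets of the integrated stress response moved in both directions: of 17 measured, 2 were higher and 2 lower, with a median of 0.074. The share that passed was 23.5%, beside 7.68% of all genes. Mthfd2, a mitochondrial enzyme of folate metabolism, was at 3.83 to 6.91 CPM on the regular diet (median 5.18) and 6.90 to 13.6 CPM on the high-fat diet (median 8.29), with a difference of 0.80 ± 0.15 (SE; edgeR adjusted p = 0.00677). The transcription factor Atf5 rose by 0.29 ± 0.067 (SE; edgeR adjusted p = 0.014). Ppp1r15a, the subunit that directs dephosphorylation of eIF2-alpha, fell (-0.35 ± 0.080, SE; edgeR adjusted p = 0.0141), as did the serine hydroxymethyltransferase Shmt2 (-0.34 ± 0.092, SE; edgeR adjusted p = 0.0291). 2 to 5 (without Ctrl_HFD replicate 3) members were higher and 1 (without each of 8 libraries) to 3 (without NaV1.5_RD replicate 4) members were lower in the fits without 1 library. With offsets the 2 higher genes passed and the 2 lower genes did not. The Shmt2 call was lost without each of 8 libraries.

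Among 16 cold-inducible RNA-binding proteins and splicing regulators, 2 rose and 2 fell (25%, beside 7.68% of all genes). Cirbp, whose protein binds RNA and rises when cells are cooled (GRCm38 chromosome 10, 80165985 to 80172786, plus strand), was at 78.4 to 103 CPM on the regular diet (median 96.8) and 48.2 to 78.5 CPM on the high-fat diet (median 63.5). The lowest regular-diet library lay just below the highest high-fat library, and the difference was -0.55 ± 0.080 (SE; edgeR adjusted p = 0.00171), with -0.45 ± 0.12 in Ctrl and -0.64 ± 0.11 in NaV1.5 atria. Rbm3, the other cold-inducible protein of the list, was at -0.21 ± 0.11 (SE; edgeR adjusted p = 0.233) and did not pass. The splicing factor Sugp1 was at 32 to 38.1 CPM on the regular diet (median 36.9) and 23.5 to 32.2 CPM on the high-fat diet (median 26.9) and fell by 0.40 ± 0.060 (SE; edgeR adjusted p = 0.00171). Tra2a, a splicing activator, rose without overlap of the diets (0.29 ± 0.068, SE; edgeR adjusted p = 0.0143), and the splicing kinase Clk4 rose by 0.18 ± 0.047 (SE; edgeR adjusted p = 0.0241). Of these 4, Clk4 lost its call with GC and length offsets, where its difference was 0.017 (edgeR adjusted p = 0.879), and it was also lost without NaV1.5_RD replicate 2.

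**Figure D3:**
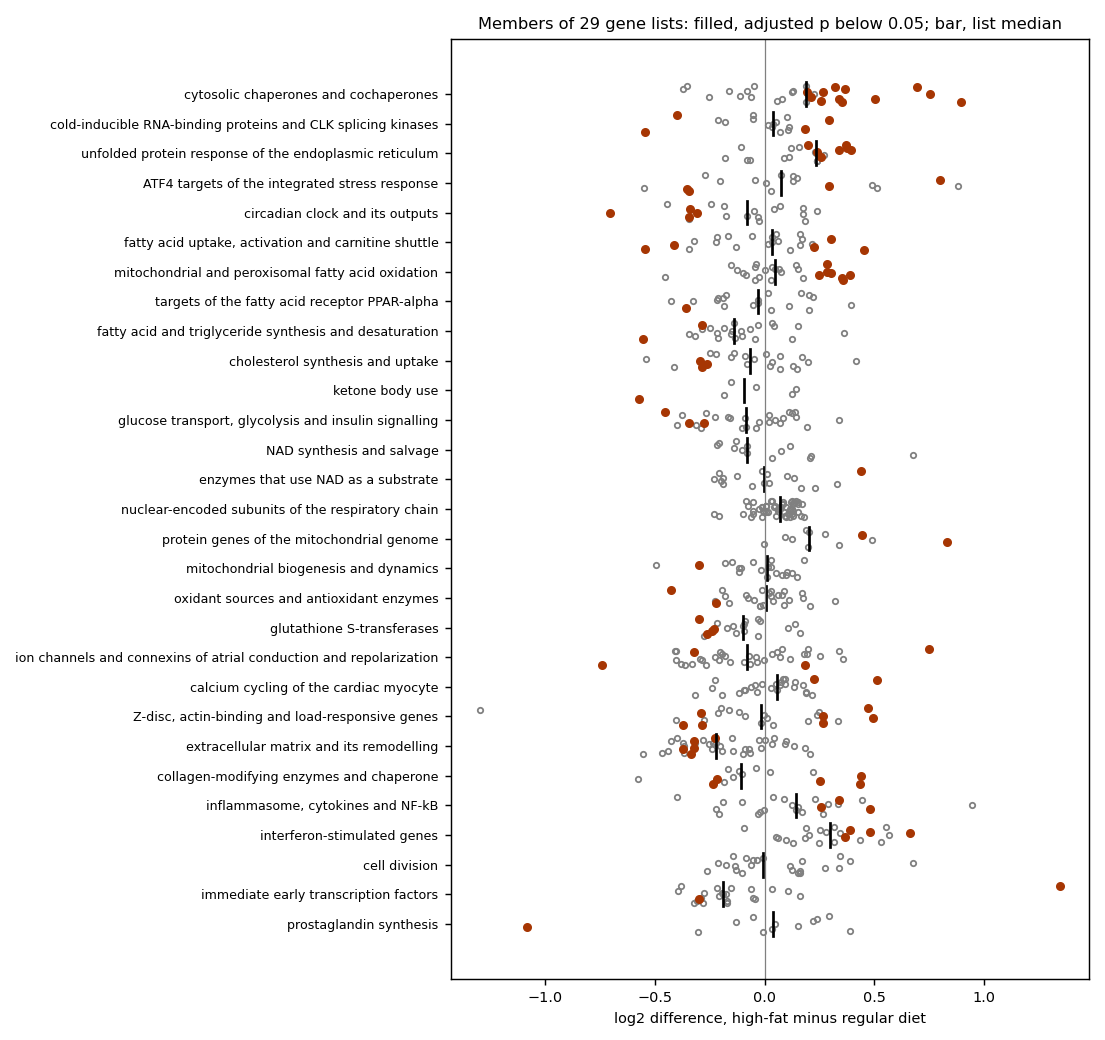
Log2 difference between high-fat and regular diet (horizontal axis) for every measured member of 29 gene lists (rows). Filled points passed an adjusted p of 0.05, open points did not, and the black bar is the list's median. Filled points of both chaperone lists and of fatty acid oxidation lie to the right of 0, and those of the clock, glutathione transferase and matrix lists lie to the left.

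Of the 25 measured genes of mitochondrial and peroxisomal fatty acid oxidation, 7 rose and none fell, although the list's median was 0.045. That is 28% of the list beside 7.68% of all genes. Decr1, the 2,4-dienoyl-CoA reductase that handles double bonds of unsaturated fatty acids (GRCm38 chromosome 4, 15917240 to 15945507, minus strand), was at 217 to 281 CPM on the regular diet (median 233) and 272 to 346 CPM on the high-fat diet (median 319). The ranges overlapped narrowly, and the difference was 0.39 ± 0.065 (SE; edgeR adjusted p = 0.00345). Acadvl, the very long chain acyl-CoA dehydrogenase, rose by 0.36 ± 0.066 (SE; edgeR adjusted p = 0.00634), and Etfdh, which passes electrons from the dehydrogenases to the respiratory chain, by 0.30 ± 0.061 (SE; edgeR adjusted p = 0.00829). Both subunits of the mitochondrial trifunctional protein rose, Hadhb by 0.35 ± 0.066 (SE; edgeR adjusted p = 0.00659) and Hadha by 0.28 ± 0.060 (SE; edgeR adjusted p = 0.0105), and for Hadha the diets did not overlap. Acaa2, the last thiolase of the cycle, rose by 0.28 ± 0.075 (SE; edgeR adjusted p = 0.0263) and Acadm, the medium chain dehydrogenase, by 0.25 ± 0.075 (SE; edgeR adjusted p = 0.0485). With offsets 5 of the 7 passed, without Hadhb and Acadm, and 5 to 7 passed in the left-out fits. Acadm lost its call without each of 13 libraries and Acaa2 without each of 5.

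Ech1, a dienoyl-CoA isomerase of the same breakdown of unsaturated fatty acids (GRCm38 chromosome 7, 28825217 to 28832247, plus strand), was outside that list and among the 3 higher genes with the smallest p. It was at 548 to 895 CPM on the regular diet (median 689.9) and 899.6 to 1335 CPM on the high-fat diet (median 1133), so the diets did not overlap, and the difference was 0.62 ± 0.080 (SE; edgeR adjusted p = 0.000576). The rise was 0.67 ± 0.12 in Ctrl and 0.59 ± 0.11 in NaV1.5 atria, and 0.71 with offsets.

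Genes of fatty acid uptake, activation and the carnitine shuttle split, with 3 of 22 higher and 2 lower (22.7%, beside 7.68% of all genes). Cd36, the carrier of long-chain fatty acids across the plasma membrane (GRCm38 chromosome 5, 17781690 to 17888801, minus strand), was at 510.1 to 661 CPM on the regular diet (median 567) and 659.6 to 895 CPM on the high-fat diet (median 808). The highest regular-diet library and the lowest high-fat library were almost level, and the difference was 0.45 ± 0.068 (SE; edgeR adjusted p = 0.00171). Fabp3, the fatty acid binding protein of muscle, and Slc25a20, the carnitine-acylcarnitine carrier, rose by 0.30 ± 0.082 (SE; edgeR adjusted p = 0.0292) and 0.23 ± 0.058 (SE; edgeR adjusted p = 0.0233). Cpt1a, the liver-type isoform of carnitine palmitoyltransferase at the outer membrane, fell, at 68.1 to 95.4 CPM on the regular diet (median 86.3) and 55.5 to 77.9 CPM on the high-fat diet (median 64.6), a difference of -0.41 ± 0.074 (SE; edgeR adjusted p = 0.00492). Pnpla2, the lipase that opens stored triglyceride, was at 324 to 552 CPM on the regular diet (median 437) and 233 to 362 CPM on the high-fat diet (median 299.9) and fell by 0.55 ± 0.100 (SE; edgeR adjusted p = 0.00579). Cd36, Cpt1a and Pnpla2 kept their calls in all 17 left-out fits, and with offsets all 5 genes passed and Lpl, the lipoprotein lipase, passed as lower. In the left-out fits 1 (without NaV1.5_RD replicate 1 or NaV1.5_RD replicate 2) to 3 members were higher and 2 to 5 (without NaV1.5_RD replicate 4) members were lower. Fabp3 lost its call without each of 7 libraries and Slc25a20 without NaV1.5_RD replicate 1 or 2.

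Of the 19 measured members of the PPAR-alpha target list 0 were higher and 1 was lower (5.26%, beside 7.68% of all genes), with a median of -0.032. This list leaves out the enzymes of beta-oxidation, which the receptor can also induce, and Cd36. Those genes were counted in the lists above, where 7 of 25 oxidation genes and Cd36 rose, so the count does not cover all targets. The member that passed was Mlycd, the decarboxylase that removes malonyl-CoA (-0.36 ± 0.072, SE; edgeR adjusted p = 0.00829), and it did not pass with offsets. Without NaV1.5_RD replicate 4 there were 3 lower members and without NaV1.5_HFD replicate 5 there were 2, and without Ctrl_RD replicate 4 or Ctrl_HFD replicate 3 there was 1 higher member. Pdk4, the kinase that restrains pyruvate dehydrogenase and a well-known target of the receptor, was at 197 to 562 CPM on the regular diet (median 465) and 184 to 635 CPM on the high-fat diet (median 396). Its ranges over both genotypes overlapped almost wholly, and the pooled difference was -0.21 ± 0.27 (SE; edgeR adjusted p = 0.662). The genotypes had opposite signs. In Ctrl atria Pdk4 was at 416 to 562 CPM on the regular diet and 184 to 343 CPM on the high-fat diet, without overlap (-0.94 ± 0.27, SE). In NaV1.5 atria the ranges overlapped (0.45 ± 0.25, SE), and the difference between genotypes did not pass.

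Of 23 genes of fatty acid and triglyceride synthesis 0 rose and 2 fell (8.70%, near the 7.68% of all genes), with a median of -0.14. Fasn, the fatty acid synthase (GRCm38 chromosome 11, 120805846 to 120824547, minus strand), was at 22.9 to 40.4 CPM on the regular diet (median 29.9) and 17.8 to 25.1 CPM on the high-fat diet (median 21.6), so the high-fat libraries lay below or within the lower part of the regular-diet range. Its difference was -0.56 ± 0.098 (SE; edgeR adjusted p = 0.00475), and that of the delta-5 desaturase Fads1 -0.29 ± 0.056 (SE; edgeR adjusted p = 0.00772). Both passed with offsets and in all 17 left-out fits. Fasn and Pnpla2 are also adipocyte genes. In NaV1.5_RD the 2 libraries with the most Plin1 also had the most Fasn: Plin1 was 0.135, 2.74, 2.08 and 0.275 CPM in replicates 1 to 4, and Fasn 28.1, 40.4, 34.8 and 22.9 CPM. In Ctrl_RD the match was not seen: Plin1 was 1.43, 0.876, 0.570 and 1.29 CPM in replicates 1 to 4, and Fasn 38.6, 29.7, 30.1 and 25.8 CPM. Replicate 1 had the most of both there, but replicate 4, with more Plin1 than replicates 2 and 3, had the least Fasn. The part of fat in these falls was not tested. In the fits without 1 library, 2 to 4 (without NaV1.5_RD replicate 4) members of the synthesis list were lower. Of 22 genes of cholesterol synthesis and uptake 0 rose and 3 fell (13.6%): Srebf2, the transcription factor that drives the pathway (-0.29 ± 0.059, SE; edgeR adjusted p = 0.00971), squalene synthase Fdft1 (-0.29 ± 0.078, SE; edgeR adjusted p = 0.0266) and mevalonate kinase Mvk (-0.26 ± 0.080, SE; edgeR adjusted p = 0.0475). None of these 3 passed with offsets, and Fdft1 and Mvk lost their calls without each of 6 and 15 libraries. The list had 1 lower member without Ctrl_RD replicate 1 or 3, NaV1.5_RD replicate 2 or 3 or NaV1.5_HFD replicate 3, and 1 higher without NaV1.5_HFD replicate 4.

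Of 27 genes of glucose transport, glycolysis and insulin signalling, 0 rose and 3 fell (11.1%, beside 7.68% of all genes), with a median of -0.085. They were hexokinase Hk1 (-0.34 ± 0.082, SE; edgeR adjusted p = 0.017), the pyruvate dehydrogenase kinase Pdk2 (-0.45 ± 0.11, SE; edgeR adjusted p = 0.0184) and the transcription factor Foxo3 (-0.27 ± 0.081, SE; edgeR adjusted p = 0.0413). Hk1 and Pdk2 passed with offsets, and Foxo3 lost its call without each of 11 libraries. Without Ctrl_RD replicate 4 the count was 7 and without NaV1.5_RD replicate 4 it was 8. Among 6 genes of ketone body use, Bdh1 fell (-0.57 ± 0.17, SE; edgeR adjusted p = 0.044), a call that was lost without each of 11 libraries. With offsets Bdh1 did not pass (edgeR adjusted p = 0.123), and Slc16a7 passed as lower.

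NAD synthesis and salvage, the subject named in the title of the series, showed 0 of 13 measured members past the threshold in either direction, also with offsets, with a median of -0.078. Without Ctrl_RD replicate 2, Ctrl_HFD replicate 4 or NaV1.5_RD replicate 4, 1 member passed as higher. Nmrk2, the nicotinamide riboside kinase of muscle, had the smallest p of the list. It was at 8.80 to 21.6 CPM on the regular diet (median 10.5) and 9.44 to 30.6 CPM on the high-fat diet (median 17.5), with a difference of 0.68 ± 0.24 (SE; edgeR adjusted p = 0.0874). Nmrk2 lies inside Atcayos on the other strand and the counting did not use strand, so its value is uncertain. Nampt, which makes nicotinamide mononucleotide from nicotinamide, was at 47.8 to 88.2 CPM on the regular diet (median 66.3) and 63.3 to 98.8 CPM on the high-fat diet (median 75.2), a difference of 0.20 ± 0.11 (SE; edgeR adjusted p = 0.232). Naprt, which starts synthesis from nicotinic acid, was at -0.21 ± 0.086 (SE; edgeR adjusted p = 0.137). Of 17 enzymes that use NAD as a substrate, Parp14, a mono-ADP-ribosyltransferase, passed, at 18.1 to 23.4 CPM on the regular diet (median 19.8) and 21.9 to 32.6 CPM on the high-fat diet (median 27.4) and 0.44 ± 0.084 (SE; edgeR adjusted p = 0.00723). It also passed with offsets and in all 17 left-out fits. The list's share past the threshold was 5.88%, beside 7.68% of all genes, and its median was -0.0011. Without NaV1.5_RD replicate 4, 3 members were higher and 4 lower, without Ctrl_RD replicate 4, 2 were lower, and without NaV1.5_HFD replicate 1, 2 were higher.

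RNA of the mitochondrial genome took a larger share of the counts on the high-fat diet. The share was 20.2% ± 1.03 (SD, n = 8) on the regular diet and 23.2% ± 2.25 (SD, n = 9) on the high-fat diet, with ranges of 18.7 to 21.9% and 20.4 to 26.6% that overlapped. The mean difference over genotypes was 3.00 percentage points (exact permutation of diet within genotype, 8820 arrangements, 2-sided p = 0.00567). Leaving out single libraries gave 2.41 to 3.45 points, and batch 1 alone gave 3.37. Of the 11 protein genes of the mitochondrial genome that were measured, mt-Nd2 and mt-Nd3, subunits of complex I, passed, at 0.44 ± 0.095 (SE; edgeR adjusted p = 0.0106) and 0.83 ± 0.23 (SE; edgeR adjusted p = 0.0404), and the mt-Nd3 call was lost without each of 13 libraries. These 2 genes were 18.2% of the list, beside 7.68% of all genes. The list's median was 0.20 and became -0.0042 with offsets, where 0 passed. The large ribosomal RNA mt-Rnr2, at 1327 to 2432 CPM on the regular diet (median 1880.3) and 2137 to 3682 CPM on the high-fat diet (median 2719.6), rose by 0.62 ± 0.11 (SE; edgeR adjusted p = 0.00634) and passed with offsets, although poly-A selection does not aim at ribosomal RNA.

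Nuclear genes of the respiratory chain did not pass in either direction (0 of 55, also with offsets). Of the 55, 40 lay above 0, with a median of 0.069 against -0.0073 over all genes. Ndufs7, a complex I subunit, and Uqcrc1, a complex III subunit, had the smallest p and were at -0.21 ± 0.069 (SE; edgeR adjusted p = 0.068) and -0.23 ± 0.092 (SE; edgeR adjusted p = 0.122). Without NaV1.5_RD replicate 4, 11 members passed as higher. Of 20 genes of mitochondrial biogenesis and dynamics, the fusion gene Mfn2 fell (-0.30 ± 0.086, SE; edgeR adjusted p = 0.0382), which is 5% of the list beside 7.68% of all genes. That call was lost without each of 11 libraries, and 0 members passed with offsets. Without NaV1.5_RD replicate 4, 1 member of that list was higher and 3 were lower, and without NaV1.5_HFD replicate 4, 1 was higher and 2 were lower. Of 26 antioxidant genes 2 were lower (7.69%, the share of all genes being 7.68%), the sulfurtransferase Mpst, whose diets did not overlap (-0.43 ± 0.076, SE; edgeR adjusted p = 0.00492), and the extracellular peroxidase Gpx3 (-0.22 ± 0.069, SE; edgeR adjusted p = 0.0493). Mpst passed with offsets, the Gpx3 call was lost without each of 14 libraries, and 2 members were higher and 3 lower without NaV1.5_RD replicate 4.

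Of 19 measured glutathione S-transferases, which join glutathione to reactive compounds, 4 fell, 0 rose and 3 lay above 0. The share that passed was 21.05%, beside 7.68% of all genes. Gstm1 was at 380.4 to 442 CPM on the regular diet (median 398) and 284 to 385 CPM on the high-fat diet (median 343), a difference of -0.30 ± 0.064 (SE; edgeR adjusted p = 0.0103). Gstt2, Gstp1 and Gstm7 fell, at -0.24 ± 0.054 (SE; edgeR adjusted p = 0.014), -0.23 ± 0.058 (SE; edgeR adjusted p = 0.0215) and -0.26 ± 0.072 (SE; edgeR adjusted p = 0.0299). In Ctrl atria Gstp1 was at -0.067 ± 0.071 and Gstm7 at -0.12 ± 0.098 (SE), against -0.38 ± 0.067 and -0.39 ± 0.094 in NaV1.5 atria, and the difference between genotypes did not pass for either. Without NaV1.5_RD replicate 3 the count was 2, and without NaV1.5_RD replicate 4, 5 members were lower and 2 higher. With offsets Gstm1 and Gstt2 passed, and the list's median was -0.13 against -0.10 without them. These genes have near-identical copies, so that reads may be divided or left out between Gstm1, Gstm7 and their relatives. Ptgds, a prostaglandin D synthase, was at 14 to 45.6 CPM on the regular diet (median 37) and 5.70 to 37.5 CPM on the high-fat diet (median 12.9) and fell by 1.08 ± 0.23 (SE; edgeR adjusted p = 0.0134), with -0.56 ± 0.25 in Ctrl and -1.62 ± 0.26 in NaV1.5 atria. It was the only one of 12 genes of prostaglandin synthesis to pass (8.33%, near the 7.68% of all genes), also with offsets.

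Clock genes and their outputs showed 4 of 19 lower and 0 higher (21.05%, beside 7.68% of all genes), with a median of -0.079. Ciart, a repressor in the clock loop (GRCm38 chromosome 3, 95878503 to 95882251, minus strand), was at 23.1 to 39.5 CPM on the regular diet (median 31.6) and 12.7 to 26.5 CPM on the high-fat diet (median 17.4). The 5 high-fat libraries of NaV1.5 lay lowest, below all Ctrl libraries, and the difference was -0.70 ± 0.12 (SE; edgeR adjusted p = 0.00453). The group means were 32.0 CPM in Ctrl_RD, 24.4 in Ctrl_HFD, 29.9 in NaV1.5_RD and 14.9 in NaV1.5_HFD. Dbp, a transcription factor driven by the clock, fell (-0.34 ± 0.087, SE; edgeR adjusted p = 0.0232), as did the repressors Cry2 (-0.31 ± 0.086, SE; edgeR adjusted p = 0.0345) and Bhlhe40 (-0.34 ± 0.098, SE; edgeR adjusted p = 0.0376). In Ctrl atria Dbp was at -0.17 ± 0.12 (SE), against -0.50 ± 0.11 in NaV1.5 atria, and the difference between genotypes did not pass. With offsets Ciart alone passed. Ciart kept its call in all 17 left-out fits, while Cry2 and Bhlhe40 lost theirs in 11 and Dbp in 3. The count was 1 without NaV1.5_RD replicate 1, 2 or 3 and 7 without Ctrl_RD replicate 4. The sources used here do not give the time of day at which tissue was taken, and its part in the result was not tested.

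Of 10 genes listed as atrial myocyte markers, 4 were lower and 0 higher (40%, beside 7.68% of all genes). Nppa, which encodes atrial natriuretic peptide (GRCm38 chromosome 4, 148000722 to 148002079, plus strand), was at 19588 to 23898 CPM on the regular diet (median 20976) and 14707 to 18762 CPM on the high-fat diet (median 16320.0). Every high-fat library lay below every regular-diet library, and the difference was -0.37 ± 0.064 (SE; edgeR adjusted p = 0.00419), with -0.30 ± 0.093 in Ctrl and -0.44 ± 0.088 in NaV1.5 atria. Tbx5, a transcription factor of atrial identity and rhythm, was at 172 to 279.6 CPM on the regular diet (median 237) and 134 to 241 CPM on the high-fat diet (median 160.2), a difference of -0.52 ± 0.10 (SE; edgeR adjusted p = 0.00829). Dkk3 and Myh6, the alpha myosin heavy chain, fell, at -0.32 ± 0.076 (SE; edgeR adjusted p = 0.0162) and -0.35 ± 0.092 (SE; edgeR adjusted p = 0.0271). The other 6 atrial markers did not pass, among them Myl7 (-0.089), Myl4 (0.0083), Sln (0.082) and Kcnj3 (-0.0014). Myh6 lost its call without each of 7 libraries. With offsets Tbx5, Nppa and Dkk3 passed. Of 7 measured ventricular markers 0 passed, all 7 lay below 0, and the 8 markers of that list summed to 336 to 833 CPM on the regular diet and 229.5 to 614 CPM on the high-fat diet. Myl2, the ventricular light chain, had means of 42.9 CPM on the regular and 15.7 CPM on the high-fat diet (edgeR adjusted p = 0.22), and how much ventricle each sample held was not tested. Tnni1, the slow skeletal troponin I of the fetal heart, was at 6.12 to 14.8 CPM on the regular diet (median 8.79) and 1.73 to 7.93 CPM on the high-fat diet (median 4.62) and fell by 1.08 ± 0.21 (SE; edgeR adjusted p = 0.00829).

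Z-disc and load-responsive genes moved both ways, with 4 of 23 higher and 3 lower (30.4%, beside 7.68% of all genes). Xirp2, an actin-binding protein of the intercalated disc (GRCm38 chromosome 2, 67173834 to 67526615, plus strand), was at 116 to 141 CPM on the regular diet (median 128) and 131 to 206 CPM on the high-fat diet (median 185), where 1 high-fat library lay within the regular-diet range. Its difference was 0.47 ± 0.072 (SE; edgeR adjusted p = 0.00171). Fhl2, a scaffold that binds titin, was at 286 to 481 CPM on the regular diet (median 345) and 396 to 643 CPM on the high-fat diet (median 485), a difference of 0.49 ± 0.097 (SE; edgeR adjusted p = 0.0076). Nebl, a nebulin relative of the Z-disc, rose by 0.26 ± 0.070 (SE; edgeR adjusted p = 0.0261), and titin itself, Ttn, was the fourth member that rose. Nppa, Tcap (-0.29) and Des (-0.29) were the 3 lower members. In the left-out fits 2 (without Ctrl_HFD replicate 2 or NaV1.5_RD replicate 2 or NaV1.5_RD replicate 3) to 6 (without NaV1.5_RD replicate 4 or NaV1.5_HFD replicate 4) members were higher and 1 (without each of 7 libraries) to 5 (without Ctrl_RD replicate 4 or NaV1.5_RD replicate 4) members were lower. With offsets Fhl2, Xirp2 and Ttn passed as higher and Nppa and Synpo2 as lower.

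Of 27 calcium cycling genes 2 were higher and 0 lower, which is 7.41% of the list beside 7.68% of all genes, and with offsets 2 were higher. Slc8a1, the sodium-calcium exchanger that carries calcium out of the myocyte (GRCm38 chromosome 17, 81373105 to 81738377, minus strand), was at 152 to 220.1 CPM on the regular diet (median 181) and 174 to 344 CPM on the high-fat diet (median 252). The ranges overlapped. The difference was 0.51 ± 0.085 (SE; edgeR adjusted p = 0.00349), it was 0.40 ± 0.12 in Ctrl and 0.61 ± 0.12 in NaV1.5 atria, and it was 0.36 with offsets (edgeR adjusted p = 0.0105). In the fits without 1 library, 1 (without NaV1.5_RD replicate 3) to 4 (without NaV1.5_RD replicate 4) members were higher, 2 were lower without Ctrl_RD replicate 4, and 1 was lower without Ctrl_HFD replicate 1, NaV1.5_RD replicate 4 or NaV1.5_HFD replicate 5. Of 36 ion channel and connexin genes, 2 rose and 2 fell (11.1% of the list). Scn3b, a beta subunit of sodium channels, was at 0.805 to 1.49 CPM on the regular diet (median 1.17) and 1.03 to 2.42 CPM on the high-fat diet (median 2.01), a difference of 0.75 ± 0.19 (SE; edgeR adjusted p = 0.0248), and it alone passed with offsets. Gja1, connexin 43, rose by 0.18 ± 0.057 (SE; edgeR adjusted p = 0.0499). Kcnh2, the channel of the rapid delayed rectifier current, fell (-0.32 ± 0.084, SE; edgeR adjusted p = 0.0255), as did the calcium channel subunit Cacna2d2 (-0.74 ± 0.19, SE; edgeR adjusted p = 0.0308). In the left-out fits 0 (without NaV1.5_RD replicate 2 or NaV1.5_RD replicate 3) to 3 (without Ctrl_HFD replicate 3 or NaV1.5_RD replicate 4 or NaV1.5_HFD replicate 4) members were higher and 0 (without Ctrl_RD replicate 1 or NaV1.5_RD replicate 2 or NaV1.5_RD replicate 3 or NaV1.5_HFD replicate 2) to 6 (without NaV1.5_RD replicate 4) members were lower.

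Of 37 measured extracellular matrix genes 5 fell and 0 rose (13.5%, beside 7.68% of all genes), with a median of -0.22. Fbln2 and Fbln1, fibulins of the elastic matrix, fell, at -0.33 ± 0.087 (SE; edgeR adjusted p = 0.0254) and -0.32 ± 0.085 (SE; edgeR adjusted p = 0.0271). The basement membrane collagen Col18a1 (-0.37 ± 0.10, SE; edgeR adjusted p = 0.0317) and the proteoglycan Bgn (-0.32 ± 0.091, SE; edgeR adjusted p = 0.0352) fell as well. The fifth was the growth factor Tgfb3 (-0.23). None of the 5 passed with offsets. The count was 0 without NaV1.5_RD replicate 1 or 2 and 15 without NaV1.5_RD replicate 4.

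Of 14 measured enzymes and chaperones that process collagen 3 rose, also in every left-out fit, and 2 fell (35.7%, beside 7.68% of all genes). Serpinh1, the collagen chaperone of the endoplasmic reticulum (GRCm38 chromosome 7, 99345376 to 99353239, minus strand), was at 239.9 to 343 CPM on the regular diet (median 289) and 340.4 to 464 CPM on the high-fat diet (median 386). The ranges overlapped narrowly, and the difference was 0.44 ± 0.064 (SE; edgeR adjusted p = 0.00171). P4ha1, the catalytic subunit of collagen prolyl 4-hydroxylase (GRCm38 chromosome 10, 59323296 to 59373304, plus strand), was at 53.3 to 73.9 CPM on the regular diet (median 68.5) and 79.5 to 107 CPM on the high-fat diet (median 88), without overlap, and rose by 0.43 ± 0.069 (SE; edgeR adjusted p = 0.00204). Plod2, a collagen lysyl hydroxylase, rose by 0.25 ± 0.053 (SE; edgeR adjusted p = 0.00971). Crtap, a partner in prolyl 3-hydroxylation whose diets did not overlap, fell (-0.23 ± 0.052, SE; edgeR adjusted p = 0.0124), as did the procollagen cleavage enhancer Pcolce (-0.22). 1 (without each of 13 libraries) to 4 (without NaV1.5_RD replicate 4) members were lower in the fits without 1 library. With offsets Serpinh1, P4ha1 and P4ha2 passed as higher and none as lower.

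Of 22 interferon-stimulated genes 4 rose and 0 fell (18.2%, beside 7.68% of all genes), and 21 of 22 lay above 0, with a median of 0.30. Xaf1, Ifit2, Ifi44 and Rtp4, all induced by interferon, rose by 0.37 ± 0.11 (SE; edgeR adjusted p = 0.0394), 0.48 ± 0.14 (SE; edgeR adjusted p = 0.0406), 0.66 ± 0.19 (SE; edgeR adjusted p = 0.0439) and 0.39 ± 0.12 (SE; edgeR adjusted p = 0.0494). With offsets 0 members passed, while the 4 differences were 0.35 (Xaf1), 0.35 (Ifit2), 0.51 (Ifi44) and 0.38 (Rtp4) and the list's median 0.26. The count was also 0 without Ctrl_RD replicate 1 or 2, Ctrl_HFD replicate 1 or 4, NaV1.5_RD replicate 1, 2 or 3 and NaV1.5_HFD replicate 2 or 3. Of 23 genes of the inflammasome, cytokines and NF-kB signalling, Tank and Xiap, regulators of NF-kB and cell death, and Casp1, the protease of the inflammasome, rose by 0.34 ± 0.082 (SE; edgeR adjusted p = 0.0178), 0.26 ± 0.070 (SE; edgeR adjusted p = 0.0306) and 0.48 ± 0.14 (SE; edgeR adjusted p = 0.043), and none passed with offsets. In Ctrl atria Tank was at 0.16 ± 0.10 and Xiap at 0.060 ± 0.084 (SE), against 0.52 ± 0.10 and 0.44 ± 0.081 in NaV1.5 atria, and the difference between genotypes did not pass for either. Tank, Xiap and Casp1 were 13.0% of their list, beside 7.68% of all genes. In the left-out fits 1 (without each of 6 libraries) to 4 (without Ctrl_RD replicate 4 or NaV1.5_RD replicate 4) members were higher. Nlrp3, the sensor of that inflammasome, was at 0.26 ± 0.31 (SE; edgeR adjusted p = 0.64). Of 18 macrophage markers Mrc1 rose (0.27), though it did not pass with offsets, and 17 did not pass. Without NaV1.5_RD replicate 4, 3 of these markers were higher and 1 lower. Summed macrophage markers were 815 to 1275 CPM on the regular and 897 to 1299 CPM on the high-fat diet.

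Cell division genes did not pass in either direction (0 of 23, also with offsets). Ccnb1, a mitotic cyclin, was at 0.68 ± 0.25 (SE; edgeR adjusted p = 0.0897) and Pcna, the DNA polymerase clamp, at 0.16 ± 0.060 (SE; edgeR adjusted p = 0.101). Of 23 immediate early transcription factors 1 rose and 1 fell (8.70%, near the 7.68% of all genes). Nr4a3, an orphan nuclear receptor, was at 1.93 to 3.69 CPM on the regular diet (median 2.29) and 2.56 to 14.5 CPM on the high-fat diet (median 5.50). The spread was wide on the high-fat diet, and the difference was 1.35 ± 0.34 (SE; edgeR adjusted p = 0.0254). Jund, a member of the AP-1 family, fell by 0.30 ± 0.072 (SE; edgeR adjusted p = 0.0184). Neither passed with offsets, where Nr4a3 was at 1.34 (edgeR adjusted p = 0.051), and the Nr4a3 call was lost without NaV1.5_RD replicate 1, 2 or 3. The lower members of the list numbered 3 without Ctrl_HFD replicate 3, 2 without Ctrl_RD replicate 4 or NaV1.5_RD replicate 1, and 0 without NaV1.5_RD replicate 3.

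White fat genes were measured at low levels. Of 9 measured white adipocyte markers 3 fell, 0 rose (33.3%, beside 7.68% of all genes) and all 9 lay below 0, with a median of -2.02. Plin1, the coat protein of the fat droplet in adipocytes, was at 0.135 to 2.74 CPM on the regular diet (median 1.08) and 0 to 0.624 CPM on the high-fat diet (median 0.0984). It was low in 2 regular-diet libraries as well, and the difference was -2.54 ± 0.57 (SE; edgeR adjusted p = 0.0152). Retn and Adipoq, 2 hormones of adipocytes, were at -2.04 ± 0.52 (SE; edgeR adjusted p = 0.0243) and -2.02 ± 0.59 (SE; edgeR adjusted p = 0.0478), each with a high-fat library at 0 counts. The 11 markers summed to 189.5 to 341 CPM on the regular diet and 159 to 239 CPM on the high-fat diet, of which Plin4, which muscle also expresses, made up 235.6 and 194.2 CPM on average. Plin1 and Retn passed with offsets. Without NaV1.5_RD replicate 2 or 3 1 marker passed, and without NaV1.5_RD replicate 1 or 4 there were 5. How much fat each sample carried was not tested.

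Epicardial markers lay above 0 in all 10 of 10, with a median of 0.36, and Aldh1a2, the retinoic acid synthesis enzyme of the epicardium, passed (0.55 ± 0.13, SE; edgeR adjusted p = 0.0198). Without NaV1.5_RD replicate 4, 9 of the 10 passed as higher. That library had the highest epicardial sum on the regular diet, 757.8 CPM, against a median of 464.9 CPM there and 602.6 CPM on the high-fat diet. Endothelial, fibroblast and mural markers each gave 1 call, the endothelial Vwf lower (-0.57), the fibroblast-associated Ly6a higher (0.51) and the pericyte gene Rgs5 higher (0.29), and none of the 3 passed with offsets. Of 11 lymphocyte, 7 red cell, 8 sinoatrial, 6 brown fat and 8 Schwann cell and neuron markers that were measured, 0 passed. Of 7 measured skeletal muscle markers Tnnt3 fell (-0.58), though it did not pass with offsets. Of the thymus and lung markers the single measured thymus gene, Cd1d1, fell (-0.43) and also passed with offsets. The summed thymus and lung markers were below 10 CPM in every library. Their part in the other results was not tested.

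The genes with the smallest p lay partly outside these lists. Itgb6, the integrin beta subunit that with alpha V activates latent TGF-beta (GRCm38 chromosome 2, 60598292 to 60722643, minus strand), was at 4.04 to 6.25 CPM on the regular diet (median 4.71) and 7.15 to 12 CPM on the high-fat diet (median 8.27). All high-fat libraries lay above all regular-diet libraries, and the difference was 0.87 ± 0.11 (SE; edgeR adjusted p = 0.000576). Fgd4, an exchange factor for the small GTPase Cdc42, also rose without overlap (0.49 ± 0.075, SE; edgeR adjusted p = 0.00171), and Rc3h1, which promotes decay of messenger RNA, rose by 0.30 ± 0.050 (SE; edgeR adjusted p = 0.00345). Rc3h1 did not pass with offsets (edgeR adjusted p = 0.0661).

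Among the genes that fell, Acy3, an aminoacylase that removes acetyl groups from amino acid conjugates (GRCm38 chromosome 19, 3986570 to 3990007, plus strand), had the smallest p. It was at 88.2 to 137 CPM on the regular diet (median 113) and 49.1 to 94.6 CPM on the high-fat diet (median 75.2), where 1 regular-diet library lay below 2 high-fat libraries, and fell by 0.64 ± 0.090 (SE; edgeR adjusted p = 0.00155), with -0.48 ± 0.12 in Ctrl and -0.78 ± 0.12 in NaV1.5 atria. Aldh1l1, which oxidises formyl-tetrahydrofolate, was at 3.11 to 5.44 CPM on the regular diet (median 4.52) and 1.88 to 3.55 CPM on the high-fat diet (median 2.41), a difference of -0.82 ± 0.12 (SE; edgeR adjusted p = 0.00171). Gnb3, a G protein beta subunit, was at 3.88 to 6.12 CPM on the regular diet (median 4.88) and 1.84 to 3.63 CPM on the high-fat diet (median 2.56), without overlap, and fell by 0.89 ± 0.13 (SE; edgeR adjusted p = 0.00171). Mdk, the heparin-binding growth factor midkine, was at 13.4 to 25.9 CPM on the regular diet (median 22.1) and 10.9 to 16 CPM on the high-fat diet (median 14.1), a difference of -0.64 ± 0.099 (SE; edgeR adjusted p = 0.00171), and Wfikkn2, which binds myostatin, fell without overlap (-0.56 ± 0.088, SE; edgeR adjusted p = 0.00204). Slc1a7, a glutamate transporter, fell by 0.63 ± 0.10 (SE; edgeR adjusted p = 0.00316). The membrane protein gene Tmem108 (-0.52 ± 0.079, SE; edgeR adjusted p = 0.00171), the microtubule-associated Eml2 (-0.35 ± 0.054, SE; edgeR adjusted p = 0.00171) and Nt5dc2 (-0.38 ± 0.060, SE; edgeR adjusted p = 0.00199) fell without overlap as well, and Eml2 did not pass with offsets. Atcayos fell by 0.52 ± 0.079 (SE; edgeR adjusted p = 0.00171), but it bears an antisense name, overlaps Nmrk2 on the other strand (GRCm38 chromosome 10, 81198170 to 81202051, minus strand), and the counting did not use strand, so its value is uncertain. All 24 genes named here and above as having the 12 smallest p in a direction kept their calls in all 17 left-out fits.

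**Figure D4:**
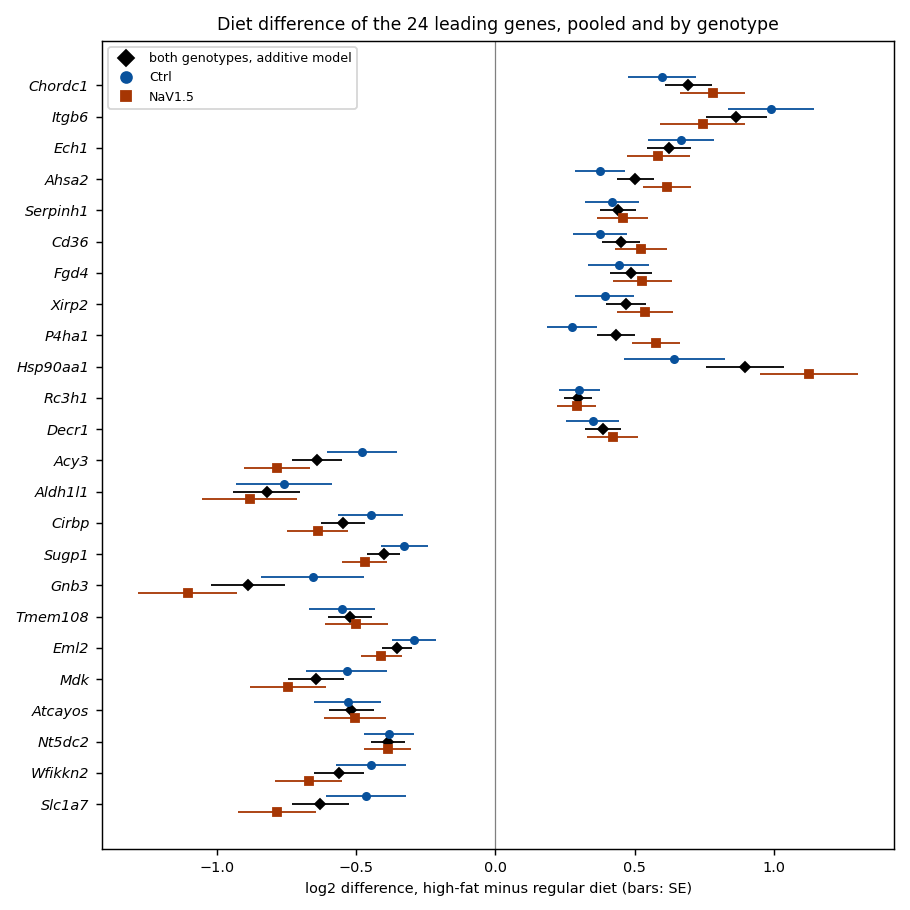
Log2 difference between high-fat and regular diet (horizontal axis, bars 1 SE) of the 12 genes with the smallest p in each direction, for both genotypes in the additive model (diamonds), for Ctrl (circles) and for NaV1.5 (squares). All 24 genes lie on the same side of 0 in both genotypes.

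The last question was whether 1 diet coefficient described both genotypes. No gene passed the test of the difference between the diet effects in NaV1.5 and Ctrl atria (0 of 16168 in edgeR, 0 in DESeq2 and 0 in limma-voom with quality weights). In edgeR 468 genes (2.89%) had an unadjusted p below 0.05, fewer than the 808 that chance alone would give, and the reason was not tested. The gene-wise intervals are wide at 4 or 5 libraries a group, so the absence of calls does not show that the genotypes responded alike. The 5 annotated genes with the smallest p were Pkn3, Zpbp, Pdk4, Fgfr3 and Zfp661, all at an adjusted p of 0.9998. Pdk4 was -0.94 ± 0.27 in Ctrl and 0.45 ± 0.25 in NaV1.5 atria, a difference of 1.38 ± 0.37 (SE), and Pkn3, a protein kinase, was -0.24 ± 0.14 in Ctrl and 0.52 ± 0.14 in NaV1.5 atria.

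The diet difference within each genotype, taken from the 4-group model of all 17 libraries, gave fewer calls. In NaV1.5 atria 225 genes (1.39%) passed, 93 higher (0.575%) and 132 lower (0.816%), and in Ctrl atria 1 gene (0.00619%) passed, Itgb6, while 1569 genes there (9.7%) had an unadjusted p below 0.05. The count in NaV1.5 atria ranged from 5 without NaV1.5_RD replicate 3 to 1218 without NaV1.5_RD replicate 4. The 2 comparisons share no library, but both take each gene's spread from the same fit, so their p-values are not independent. A gene with a small spread can pass in both, and how far this raised the shares below was not tested. Of the 225 genes called in NaV1.5 atria, 222 had the same sign in Ctrl atria, beside 70.2% of all genes tested, and in 133 (59.1%) that sign came with an unadjusted p below 0.05 there, beside 9.70% of all genes with such a p in either direction. Their median size was 0.45 in NaV1.5 and 0.23 in Ctrl atria, but they had been chosen for their size in NaV1.5. With GC and length offsets, all 55 genes called in NaV1.5 atria had the same sign in Ctrl atria. Across all 16168 genes the 2 diet differences had a Pearson correlation of 0.35 and a Spearman correlation of 0.45, given as a description, since genes are not independent and the GC trend is common to both.

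**Figure D5:**
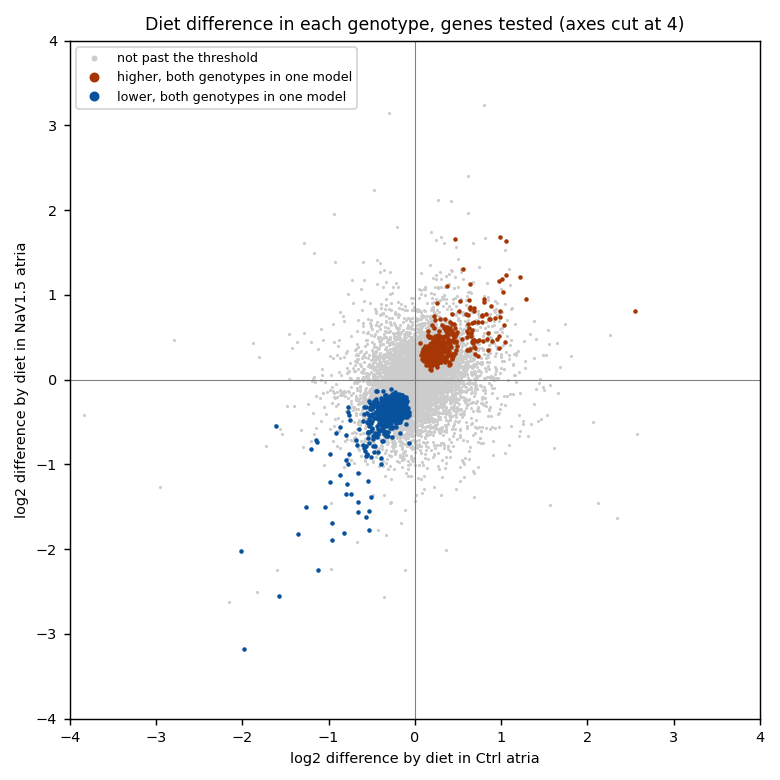
Log2 difference by diet in Ctrl atria (horizontal axis) against NaV1.5 atria (vertical axis) for the genes tested, with genes called by the additive model in red (higher) and blue (lower) and the others in grey; axes end at 4. The called genes within the axes lie at the lower left and at the upper right.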

How the data were processed

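RNA of mouse atria was sequenced from poly-A selected, strand-marking libraries, per the labels' protocols. The authors deposited a raw count for each gene name. Read pairs were assigned with featureCounts 2.0.1, without a strand option and without counting multi-mapping or overlapping reads, on GENCODE vM25 with an added record named flag, per the file headers. FastQC 0.11.7, STAR 2.7.6a and the builds GRCm38 and mm10 are named in the submitters' processing notes. Reads of a gene and of its antisense partner cannot be told apart in such counts.

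Counts of the 17 libraries were tested with edgeR 4.0.16 (quasi-likelihood, robust, TMM scaling, filterByExpr over the 4 groups) in R 4.3.3, as genotype plus diet, and as 4 groups for the diet effect in each genotype and their difference. P-values were adjusted over 16168 genes by Benjamini-Hochberg, with a threshold of 0.05. The SE is the size of the log2 difference over the root of its F statistic. The mitochondrial share was tested by exact permutation of diet within genotype. DESeq2 1.42.0, limma-voom 3.58.1 with library quality weights, other scaling, filters, a batch term, a replicate block, offsets for GC content and length from GENCODE vM21 transcripts, and leaving out each library were the alternatives. The code was tested on simulated data. Tables and figures were made with Python 3.11.15, pandas 2.3.3 and matplotlib 3.10.9.

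Genes named are the 12 annotated genes with the smallest p in each direction, up to 4 members with the smallest p of each of 29 gene lists, and the 5 with the smallest p for the genotype difference; 16 lists of cell markers were also read. Other genes were named after their values were seen, such as Hsph1, Hspa8, Hspe1, Hadha, Acaa2, Acadm, Fabp3, Nampt, mt-Rnr2, Tnni1, Plin1, Retn, Adipoq, Tbx5, Dkk3 and Myh6, and members given with a log2 value alone or as not passing. Some members counted in the lists are not reported here by name. The members and lists were chosen with earlier results of these data known. The titles give no number to Ctrl_RD replicate 1 and NaV1.5_RD replicate 4, so their numbers are names only. Depth was 15318744 to 33061018 counts a library.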

Additional observations from a re-analysis of the deposited data

Results flagged for a closer look

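Within a diet, 23 of the 242 groups of values tested had 1 library far from the other libraries of that diet by Dixon's criterion, where chance flags about 1 in 20. The values are normalised counts in CPM. Ctrl_HFD replicate 3 stood apart from the other high-fat libraries with Tbx5 at 241 (others 134 to 179). Ctrl_HFD replicate 4 was the library apart on the high-fat diet for Atf6 at 91.3 (others 108 to 124). Ctrl_RD replicate 1 stood apart from the other regular-diet libraries with Casp1 at 3.81 (others 5.06 to 5.84). Ctrl_RD replicate 2 was the library apart on the regular diet for Mdk at 13.4 (others 20.3 to 25.9) and Nmrk2 at 21.6 (others 8.8 to 13.4). Ctrl_RD replicate 3 stood apart from the other regular-diet libraries with Nt5dc2 at 77.1 (others 57.2 to 64.4) and mt-Nd2 at 14900 (others 18700 to 22100). Ctrl_RD replicate 4 was the library apart on the regular diet for Ifi44 at 7.37 (others 3.64 to 5.09). NaV1.5_HFD replicate 3 stood apart from the other high-fat libraries with Chordc1 at 55.6 (others 34.8 to 44.3), P4ha1 at 107 (others 79.5 to 92.9) and Dnajc3 at 89.2 (others 59.3 to 74). NaV1.5_HFD replicate 4 was the library apart on the high-fat diet for Naprt at 19.6 (others 12.8 to 15.8) and Jund at 41.9 (others 28.8 to 34.6). NaV1.5_HFD replicate 5 stood apart from the other high-fat libraries with Fhl2 at 643 (others 396 to 520). NaV1.5_RD replicate 1 was the library apart on the regular diet for Atcayos at 134 (others 90.2 to 111) and Pdia4 at 49.7 (others 39.8 to 44.1). NaV1.5_RD replicate 2 stood apart from the other regular-diet libraries with Crtap at 77.7 (others 60.9 to 67.1). NaV1.5_RD replicate 3 was the library apart on the regular diet for Tra2a at 28.5 (others 32.4 to 35.7). NaV1.5_RD replicate 4 stood apart from the other regular-diet libraries with Cpt1a at 68.1 (others 82.6 to 95.4), Fhl2 at 481 (others 286 to 368), Pcna at 31.1 (others 22.7 to 25.3), Hspa8 at 775 (others 541 to 648) and Tnni1 at 14.8 (others 6.12 to 9.72). NaV1.5_RD replicate 4 was the library named most often on the regular diet, with 5 genes. The causes of these values were not tested.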

How the results depend on the processing

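Of the 108 named genes called by the additive model, 65 kept their call in all 17 fits without 1 library, 44 kept it under every alternative as well, 48 lost it with GC and length offsets and 0 reversed. The pooled count of 1242 genes was 1212 with DESeq2 size factors, 1336 with a stricter filter, 1103 with batch as a term, 1116 without a genotype term and 1080 as the mean of both genotypes' contrasts. It moved to 798 without a low-count filter, 2007 with DESeq2, 3342 with limma-voom and library quality weights together and 395 with offsets, and ranged from 498 to 2461 in the fits without 1 library. The 225 genes in NaV1.5 atria became 881 with DESeq2, 2025 with limma-voom and weights and 55 with offsets, and 5 to 1218 without 1 library. The 1 gene in Ctrl atria became 7 without a filter, 0 with batch as a term, 41 with DESeq2, 10 with limma-voom and weights and 2 with offsets, and 0 to 4 without 1 library. The genotype difference gave 0 genes in each fit without 1 library and under each alternative but the block.

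The replicate block used the 12 libraries whose title numbers recur on both diets within a genotype. It gave 644 genes in the pooled model (55.4% of them higher, against 41.5%), 2626 in NaV1.5 atria, 14 in Ctrl atria and 27 for the genotype difference. Libraries of the same number correlated at 0.067 to 0.16 in Ctrl and at -0.13 to -0.11 in NaV1.5 atria, and not every library correlated best with its own number, so the numbers were not taken as pairs. Zpbp, not called in the pooled model (-0.031), was 0.10 with the replicate block, 0.13 with limma-voom and weights and -0.13 to 0.14 without 1 library. Fgfr3, also not called, was 0.047 with batch as a term, 0.12 with offsets and -0.11 to 0.064 without 1 library. The mitochondrial share kept its direction and its side of the threshold in every setting run, at 2.41 to 3.45 points without 1 library.

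Batch 2 holds 1 library, so batch and that library cannot be told apart. With 4 or 5 libraries a group, differences between genotypes may have been missed, and the size that could be detected was not estimated. The cause of the moved counts was not tested. The block changes 2 things at once, the term and the libraries, and it leaves out NaV1.5_RD replicate 4, without which alone 1218 genes passed in NaV1.5 atria.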

Other observations

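Some genes outside the lists of the report passed by more than 2-fold or belong with them, and they were chosen after their values were seen. Tgtp1 and Tgtp2, a near-identical pair of interferon-inducible GTPases between which reads may be divided, rose by 1.22 ± 0.25 and 1.12 ± 0.23 (SE) on the log2 scale (edgeR adjusted p = 0.00911 and 0.00971). Both passed in all 17 fits without 1 library and with GC and length offsets. Gbp4, a guanylate-binding protein induced by interferon-gamma, rose by 0.79 ± 0.15 (SE; edgeR adjusted p = 0.00723) and also passed with offsets. B2m, the light chain of class I antigen presentation, went from a mean of 403.8 to 612 CPM (0.60 ± 0.13, SE; edgeR adjusted p = 0.0141) but did not pass with offsets (edgeR adjusted p = 0.144).

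Hydin, a gene of the ciliary axoneme, was at -1.10 ± 0.22 (SE; edgeR adjusted p = 0.00971) and passed with offsets. Gng7, a G protein gamma subunit, fell from a mean of 1.70 to 0.676 CPM (-1.33 ± 0.23, SE; edgeR adjusted p = 0.00469), in the same direction as the beta subunit Gnb3. Cyp2e1, a cytochrome P450, was at 11.5 and 5.27 CPM on average (-1.13 ± 0.33, SE; edgeR adjusted p = 0.0471), a call lost without each of 14 libraries and with offsets.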
